A study of Rattus norvegicus with 20 samples.

Results

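The 8 genes described here carry out or control cholesterol synthesis: Hmgcs1, Idi1, Fdps, Fdft1, Sqle, Cyp51, Dhcr7 and Insig1. They were found by name among the 41012 probes of a 2-colour rat array. There 15 probes carried 1 of these names in the gene name or description. All 15 passed the filter on brightness, as did 37345 of all probes. Each gene was represented by its brightest probe, as 8 of 33091 genes tested. Members were chosen by function, and no measured value enters the rule, although earlier results of these data were known. No gene of cholesterol uptake is among the 8, and genes of uptake are described as a separate group.

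RNA came from neurons of rat cortex beside a stroke, which the labels divide into sprouting and non-sprouting ones. There were 4 groups: sprouting and non-sprouting neurons at day 21, and sprouting and non-sprouting neurons at day 7. All 10 rats were 2 months old and had a stroke, so no group is free of injury, and no strain or sex was given in the sources used here. A first fluorescent cholera toxin tracer was placed in the cortex at the edge of the infarct, and a second one of another colour was placed in the same spot 21 or 7 days later, in separate cohorts of 5 rats. Another 7 days on, about 300 neurons of each type per rat were cut out by laser, and their RNA was amplified in 2 rounds. Both cell types of a rat were hybridised together on 2 arrays with the dyes swapped, 20 arrays in all, and the rat is the replicate.

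Cholesterol of the blood hardly enters the brain, where cells make their own. The mevalonate pathway joins acetyl units into mevalonate, turns that into isoprene units, joins these into farnesyl diphosphate, and from there makes squalene, lanosterol and cholesterol. Farnesyl diphosphate also feeds the lipid tails of proteins such as Ras and Rab. In the adult brain much of the synthesis is done by astrocytes and oligodendrocytes, while neurons keep the enzymes and take up cholesterol from glia, and growing axons need sterol for new membrane. When sterol in the endoplasmic reticulum is low, Scap carries the sterol regulatory element-binding proteins to the Golgi for cleavage, and the freed fragments switch on synthesis genes. INSIG1, the product of Insig1, holds Scap back when sterol is plentiful, and Insig1 is itself a target of that control.

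Promoters are shown first because these genes are known in mammals as shared targets of the sterol regulatory element-binding proteins, which act together with the factors NF-Y and Sp1, and because their ratios are compared with each other between rats. RefSeq windows of 250 bases before to 50 bases after the start (GRCr8) were at hand for 6 of the 8 genes, all but Sqle and Fdft1. The NF-Y box CCAAT, searched on both strands, lay in 4 of the 6 windows and in 37.5% of all 33469 promoter windows. The Sp1 box GGGCGG lay in 5 of the 6 and in 33.1% of all. Of 3 nested spellings of the sterol element, TCACCCCAC was in 0 of the 6 (0.484% of all), TCACNCCAC in 0 of the 6 (1.12% of all) and CACNCCAC in 1 of the 6, that of Insig1 (5.8% of all). Stretches before the start that hold the NF-Y boxes are printed 5′ to 3′ along the gene, with each box in capitals (ATTGG is CCAAT on the other strand).
Hmgcs1, chr2:53382086-53382205, plus strand: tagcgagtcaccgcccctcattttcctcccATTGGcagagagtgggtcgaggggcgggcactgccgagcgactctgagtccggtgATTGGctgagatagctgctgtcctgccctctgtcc
Idi1, chr17:66547525-66547620, minus strand: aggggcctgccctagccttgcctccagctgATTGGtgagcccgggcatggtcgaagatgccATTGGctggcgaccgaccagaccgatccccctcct
Insig1, chr4:8057928-8057992, minus strand: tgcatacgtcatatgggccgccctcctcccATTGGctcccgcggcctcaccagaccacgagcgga
Fdps, chr2:176804867-176804976, minus strand: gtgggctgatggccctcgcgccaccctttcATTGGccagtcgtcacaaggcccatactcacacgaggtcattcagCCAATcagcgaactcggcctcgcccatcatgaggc
Hmgcs1, Idi1 and Fdps hold 2 boxes each in this stretch and Insig1 holds 1. In Hmgcs1 the boxes begin 188 and 133 bases before the start, in Idi1 66 and 35, in Fdps 130 and 85, and in Insig1 193. The stretch of Hmgcs1 lies inside the annotated span of that gene, so its start is an internal one. The start used for Insig1 also lies inside the annotated span of that gene, near its end, while the stretch printed lies outside. No NF-Y box was found in the windows of Cyp51 and Dhcr7, which says only that these letters are not in those windows.

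Between 40.2% and 94.6% of probes were well above background per array and channel, and the median standard error of a gene's log2 ratio per day was 0.052. All probes used for the 8 genes were well above background in both cell types on all 20 arrays, except that of Fdft1, which was so in non-sprouting neurons on 19 arrays, and none was saturated. In 9 of the 10 rats both dye-swapped arrays correlated between 0.34 and 0.73 over all genes once turned to the same direction. In day 21 replicate 4 they correlated at -0.36 over all genes, only 2 of the 8 genes had the same sign on both arrays, and the averaged ratios of that rat had a standard deviation of 0.065, against 0.155 to 0.239 in the others. Its direction was therefore not settled. Without it the mean log2 ratios at day 21 were 0.14 for Hmgcs1, 0.11 for Idi1, 0.02 for Fdps, 0.24 for Fdft1, -0.08 for Sqle, -0.12 for Cyp51, -0.08 for Dhcr7 and 0.06 for Insig1, and none of the 8 passed an adjusted p of 0.05. Day 7 replicate 3 had its arrays scanned on 2 days and is counted with the first in values within a scan day. Of 12 glutamatergic neuron markers 8 were found by name. All 8 cleared the background on a share of 0.5 or more of the arrays in both cell types. So did all 12 astrocyte and all 12 oligodendrocyte markers. Of all 41012 probes, 37345 did so in at least 1 cell type and day.

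None of the 8 genes differed between sprouting and non-sprouting neurons at a Benjamini-Hochberg adjusted p under 0.05 (limma, adjusted over all 33091 genes), at day 21, at day 7 or over both days. At that threshold the background was 0% of all genes at day 21, 0.00302% at day 7 (1 gene) and 0% over both days. At an unadjusted p under 0.05 stood 0 of 8 at day 21, where 5.86% of all genes did, and 1 of 8 at day 7, where 9.46% did. Over both days it was 1 of 8, beside 11% of all genes. That gene was Fdft1 each time. No member had the same sign in all 5 rats at day 21, where 4.3% of all genes were higher and 4.04% lower in every rat, nor at day 7, where 3.53% were higher and 5.1% lower in every rat. The median log2 ratio of the 8 genes was 0.039 at day 21 and 0.014 at day 7, beside -0.001 and -0.005 over all genes tested. With each array centred on its median in place of loess, the day 7 median of the 8 was -0.16. Since RNA of many captured cells was pooled per rat, fewer cells that use a gene and less RNA per cell cannot be told apart.

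**Figure D1:**
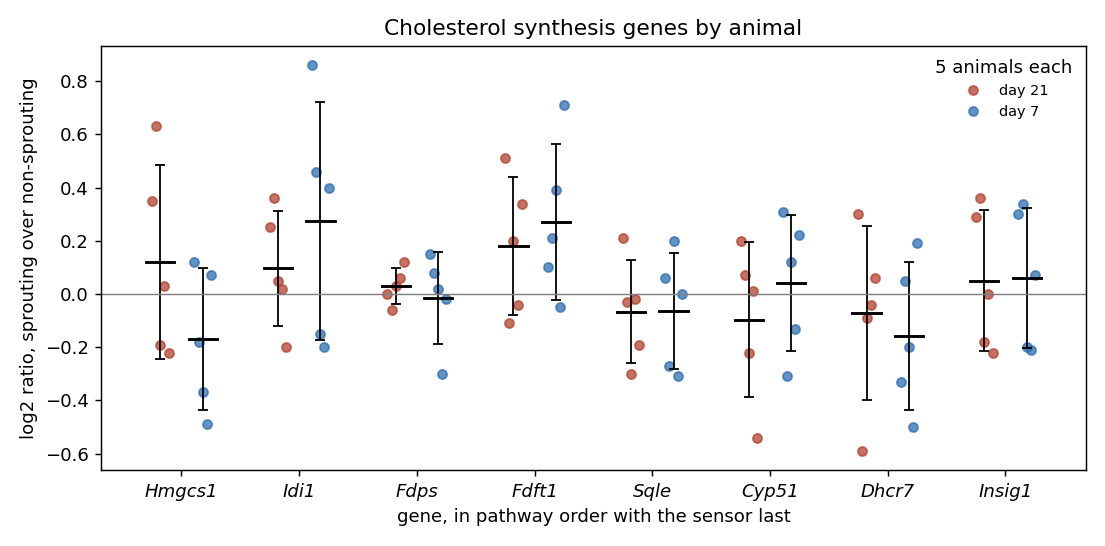
Log2 ratio of sprouting over non-sprouting neurons (vertical axis) for the 8 genes in pathway order (horizontal axis), 5 rats at day 21 on the left of each pair and 5 at day 7 on the right, with the mean as a bar and SD as whiskers. Points lie on both sides of 0 for every gene on both days, and spread most for Idi1 at day 7 (SD 0.45) and least for Fdps at day 21 (SD 0.07).

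Hmgcs1 makes HMG-CoA, the entry to the mevalonate pathway. Its log2 ratios of sprouting over non-sprouting neurons were 0.35, 0.63, -0.19, 0.03 and -0.22 in day 21 replicates 1 to 5, and 0.12, -0.18, -0.37, -0.49 and 0.07 in day 7 replicates 1 to 5. The 2 highest values were at day 21 and the 2 lowest at day 7, but the days overlapped. The mean log2 ratio was 0.12 ± 0.36 at day 21 and -0.17 ± 0.26 at day 7 (SD, n = 5 each), with limma adjusted p of 0.925 and 0.677. The difference of day 21 minus day 7 was 0.29 log2 units (SE 0.18, 95% confidence interval -0.11 to 0.69, unadjusted p = 0.138, limma adjusted p = 0.94). It was the largest difference in size among the 8 genes, and 4.08% of all genes had an unadjusted p under 0.05 in that comparison. Within the 3 scan days that held rats of both days, it was 0.56, 0.15 and 0.27, with only 1 rat of day 7 in each. A second, dimmer Hmgcs1 probe gave log2 ratios of 0.24, 0.52, -0.17, -0.06 and -0.02 at day 21 and 0.16, -0.02, 0.12, -0.04 and 0.17 at day 7. Both probes were alike at day 21, while at day 7 the second averaged 0.08 where the first averaged -0.17.

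Idi1 shifts the double bond of the isoprene unit so that chains can form. Its log2 ratios were 0.25, 0.36, 0.05, 0.02 and -0.20 in day 21 replicates 1 to 5, and 0.86, 0.46, -0.15, -0.20 and 0.40 in day 7 replicates 1 to 5. At day 7 the rats split into 3 well above 0 and 2 below it. The mean log2 ratio was 0.1 ± 0.21 at day 21 and 0.28 ± 0.45 at day 7 (SD, n = 5 each), with limma adjusted p of 0.953 and 0.555. The second Idi1 probe gave 0.26, 0.57, -0.07, 0.05 and 0.04 at day 21 and 0.61, 0.44, 0.2, -0.16 and 0.49 at day 7. It was above 0 in 8 of 10 rats, with a mean over both days of 0.24 (unadjusted p = 0.0122, limma adjusted p = 0.395), against 0.19 for the brightest probe (unadjusted p = 0.0887, limma adjusted p = 0.511). Neither probe passed after adjustment.

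Fdps joins isoprene units into farnesyl diphosphate, the branch point to sterols and to lipid tails of proteins. Its log2 ratios were 0, -0.06, 0.03, 0.06 and 0.12 in day 21 replicates 1 to 5, and 0.15, 0.08, 0.02, -0.30 and -0.02 in day 7 replicates 1 to 5. By its brightest probe Fdps was the steadiest of the 8 genes, with 9 of 10 rats between -0.06 and 0.15 and only day 7 replicate 4 outside. The mean log2 ratio was 0.03 ± 0.07 at day 21 and -0.01 ± 0.17 at day 7 (SD, n = 5 each), with limma adjusted p of 0.969 and 0.952. For this probe the 95% confidence interval of the mean log2 ratio over both days was -0.08 to 0.09. Of the 2 other probes found by name, 1 carries the accession of another transcript and is uncertain. The ratios of these 2 probes correlated with the brightest at 0.5 and 0.53 over 10 rats. The more certain of them ranged from -0.24 to 0.3, with a mean over both days of 0.1 (unadjusted p = 0.0865, limma adjusted p = 0.506). The uncertain one had a mean of -0.06 over both days.

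Fdft1, squalene synthase, makes the first product that leads only to sterols. Its log2 ratios were 0.51, -0.11, 0.20, -0.04 and 0.34 in day 21 replicates 1 to 5, and 0.10, 0.21, 0.39, -0.05 and 0.71 in day 7 replicates 1 to 5. It was above 0 in 3 of 5 rats at day 21 and in 4 of 5 at day 7, and its lowest value was -0.11. The mean log2 ratio was 0.18 ± 0.26 at day 21 and 0.27 ± 0.29 at day 7 (SD, n = 5 each), with limma adjusted p of 0.859 and 0.506. Over both days it was 0.23 ± 0.26 (SD, n = 10), a ratio of 1.17, with a 95% confidence interval of 0.05 to 0.4 in log2 units. The unadjusted p over both days was 0.0152 and the limma adjusted p was 0.408, so that Fdft1 did not pass. Without day 21 replicate 4 the mean over both days was 0.25.

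Sqle, squalene epoxidase, is a rate-limiting step of the sterol branch. Ratios on the log2 scale were 0.21, -0.03, -0.30, -0.02 and -0.19 in day 21 replicates 1 to 5, and 0.06, -0.27, 0.20, -0.31 and 0 in day 7 replicates 1 to 5. High and low rats occurred on both days. On average it was -0.07 ± 0.19 at day 21 and -0.06 ± 0.22 at day 7 (SD, n = 5 each), with limma adjusted p of 0.947 and 0.833.

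Cyp51 removes a methyl group from lanosterol. Log2 ratios were 0.20, 0.07, -0.22, 0.01 and -0.54 in day 21 replicates 1 to 5, and 0.31, -0.31, 0.12, -0.13 and 0.22 in day 7 replicates 1 to 5. The lowest value was in day 21 replicate 5 and the highest in day 7 replicate 1. Its mean log2 ratio was -0.1 ± 0.29 at day 21 and 0.04 ± 0.26 at day 7 (SD, n = 5 each), with limma adjusted p of 0.934 and 0.922.

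Dhcr7, a reductase at the end of the pathway, yields cholesterol itself. For this gene log2 ratios were 0.30, -0.59, -0.09, -0.04 and 0.06 in day 21 replicates 1 to 5, and -0.33, 0.05, -0.20, -0.50 and 0.19 in day 7 replicates 1 to 5. It was below 0 in 3 of 5 rats on each day. On average it was -0.07 ± 0.32 at day 21 and -0.16 ± 0.28 at day 7 (SD, n = 5 each), with limma adjusted p of 0.956 and 0.683.

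Insig1 encodes the sensor that holds Scap in the endoplasmic reticulum. Its log2 ratios were 0.29, 0.36, -0.18, 0 and -0.22 in day 21 replicates 1 to 5, and 0.30, 0.34, -0.20, -0.21 and 0.07 in day 7 replicates 1 to 5. On both days replicates 1 and 2 were high, but rats with the same number came from separate cohorts, so that the number does not pair them. The mean log2 ratio was 0.05 ± 0.26 at day 21 and 0.06 ± 0.26 at day 7 (SD, n = 5 each), with limma adjusted p of 0.969 and 0.878. The 3 dimmer Insig1 probes correlated with the brightest between 0.5 and 0.54 over 10 rats and had the same sign as it in 7 of 10 rats each. In day 7 replicate 3 they gave 0.37, 0.32 and 0.2, where the brightest gave -0.20.

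Channel levels, on the log2 scale after normalization between arrays, asked whether a gene differed between day 21 and day 7 within a cell type. None of the 8 genes passed at an adjusted p under 0.05 in either cell type (0% of all genes did), and 0 of 8 had an unadjusted p under 0.05, where 8.98% of all genes did in sprouting and 9.21% in non-sprouting neurons. For every one of the 8 genes the rats of both days overlapped in both cell types, while 1.53% of all genes had no overlap in each.

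Dhcr7 had the widest spread of group means, 0.44 log2 units from the lowest to the highest. In sprouting neurons its log2 levels were 8.83, 8.32, 8.34, 8.54 and 8.3 at day 21 and 8.96, 9.31, 8.31, 8.38 and 8.72 at day 7. The days overlapped, and the difference of day 21 over day 7 was -0.27 (SE 0.2, limma adjusted p = 0.607). In non-sprouting neurons its log2 levels were 8.53, 8.9, 8.43, 8.57 and 8.24 at day 21 and 9.3, 9.27, 8.5, 8.89 and 8.54 at day 7, a difference of -0.36 (SE 0.19, unadjusted p = 0.0845, limma adjusted p = 0.548). Within the 3 scan days that held both, the difference was 0.38, -0.39 and -0.09 in sprouting and 0.05, 0.13 and -0.65 in non-sprouting neurons. With scan day as a block it was -0.03 and -0.11. The sign thus varied between scan days, but each of them held only 1 rat of day 7 and 1 or 2 of day 21. From high to low the means were 8.9 ± 0.38 in non-sprouting neurons at day 7, 8.74 ± 0.42 in sprouting neurons at day 7, 8.54 ± 0.24 in non-sprouting neurons at day 21 and 8.46 ± 0.23 in sprouting neurons at day 21 (SD, n = 5 each). Neighbours in that order were no further apart than their SD.

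Hmgcs1 in non-sprouting neurons had log2 levels of 13.36, 13.61, 14.33, 13.65 and 13.65 at day 21 and 13.88, 14.38, 14.04, 14.02 and 14.18 at day 7. All but 1 day 21 rat lay below every day 7 rat, and day 21 replicate 3 was among the highest. The difference of day 21 over day 7 was -0.38 (SE 0.18, unadjusted p = 0.0544, limma adjusted p = 0.543), and within the 3 scan days that held both it was -0.53, -0.21 and -0.38. Each of these scan days held only 1 rat of day 7. With the mean of both Hmgcs1 probes the difference was -0.22. In sprouting neurons the difference was -0.09 (SE 0.2, limma adjusted p = 0.852). Its group means in order were 14.1 ± 0.19 in non-sprouting neurons at day 7, 13.93 ± 0.32 in sprouting neurons at day 7, 13.84 ± 0.34 in sprouting neurons at day 21 and 13.72 ± 0.36 in non-sprouting neurons at day 21 (SD, n = 5 each), and neighbours again differed by no more than their SD.

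The other 6 genes had group means of log2 levels that spanned between 0.08 for Fdps and 0.29 for Fdft1. In sprouting neurons Cyp51 had a mean log2 level of 11.36 ± 0.15 at day 21 and 11.61 ± 0.25 at day 7 (SD, n = 5 each), a difference of -0.24 (limma adjusted p = 0.57). Idi1 in non-sprouting neurons had a mean log2 level of 12.54 ± 0.17 at day 21 and 12.38 ± 0.42 at day 7, where day 7 replicate 1 stood at 11.65 and the other day 7 rats between 12.45 and 12.71. Its ratio of 0.86 in that rat goes with the low non-sprouting level, since the sprouting level of 12.52 lay among those of the other rats.

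**Figure D2:**
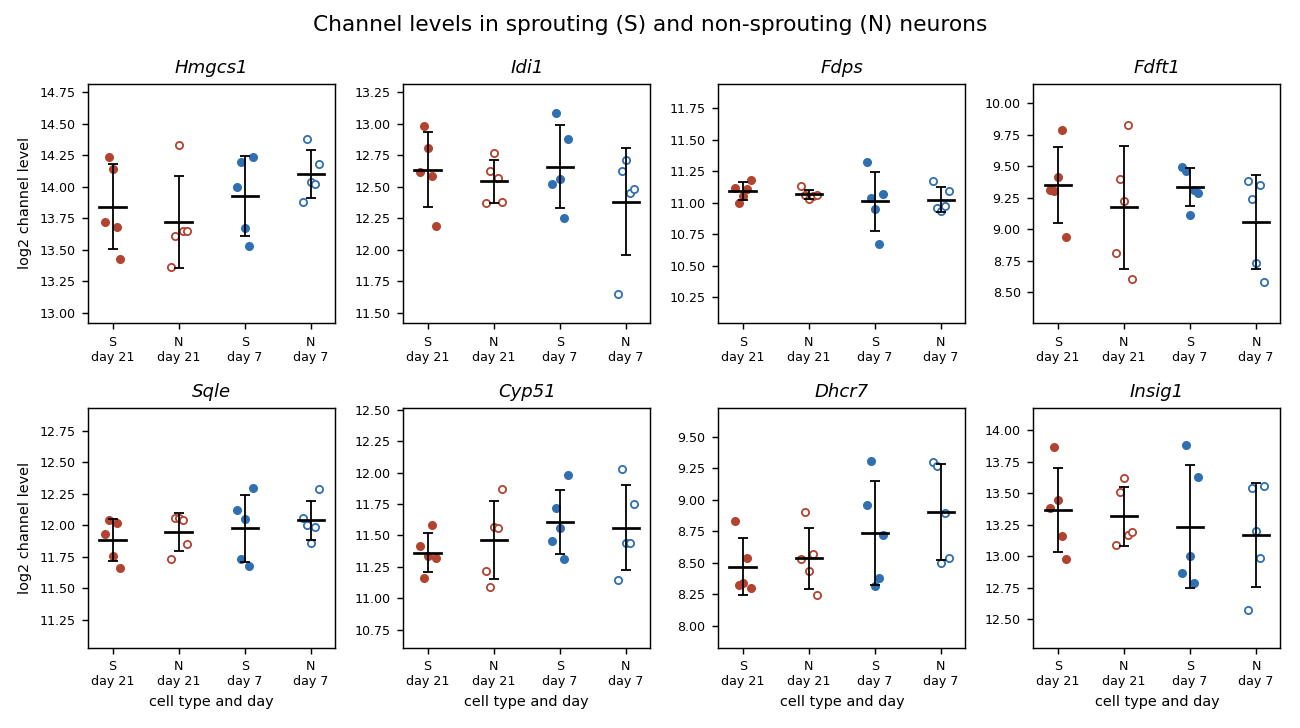
Log2 channel levels (vertical axes, each spanning the same range) of the 8 genes in sprouting (S, filled) and non-sprouting (N, open) neurons at day 21 and day 7, 5 rats each, with mean and SD. Groups overlap in every panel, and the largest distance between group means is 0.44 for Dhcr7.

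Within some rats the 8 genes lay mostly on 1 side of 0. In day 21 replicate 1, and in day 7 replicates 1 and 5, 7 of 8 genes were above 0, with median log2 ratios of 0.27, 0.13 and 0.13. In day 7 replicate 4 all 8 were below 0, with a median of -0.25. The remaining rats had between 3 and 5 of 8 above 0. Over all genes tested, the share above 0 was between 45.7% and 53.5% in every rat. The median of the 8 genes averaged -0.01 ± 0.18 at day 21 and 0 ± 0.16 at day 7 (SD, n = 5 each), so that rats with high and with low values occurred on both days.

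Log2 ratios of the 8 genes were therefore compared pairwise over the 10 rats, 28 pairs in all. Of these 23 had a Pearson r above 0, with a mean r of 0.3 (mean Spearman rho 0.29), where the mean r over all pairs of genes was 0. No pair passed after Benjamini-Hochberg adjustment over the 28. With each array centred on its median in place of loess the mean r was 0.61 and 8 pairs passed, and 1 pair passed without day 7 replicate 2. Pairs over all genes were not computed under these 2 settings, so their values have no background. With loess the mean r of the 8 genes rested much on day 7 replicate 4 and was 0.11 without it. It was 0.31 without day 21 replicate 4. With the mean of each day taken off it was 0.33. A scan day held arrays of at most 4 rats, too few for a value within scan days.

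Idi1 and Insig1 were the most alike pair, with r = 0.84 (permutation p = 0.00342, adjusted p = 0.0745) and rho = 0.87 (permutation p = 0.00233, adjusted p = 0.0565). Without the 2 rats farthest from the median of Idi1, r was 0.87, and both genes had the same sign in 8 of 10 rats. Hmgcs1 and Insig1 had r = 0.77 (permutation p = 0.00797, adjusted p = 0.0745) and rho = 0.83, and r was 0.64 without the 2 farthest rats. Both pairs rest on the brightest Insig1 probe, with which the dimmer Insig1 probes correlated only between 0.5 and 0.54. Pairs with those dimmer probes were not tested. Hmgcs1 and Idi1 had r = 0.56 (permutation p = 0.0912, adjusted p = 0.51) and rho = 0.72. Hmgcs1, Idi1 and Insig1 are among the 4 genes with an NF-Y box in their windows, as 37.5% of all windows have. Fdps, also with the box, had r of 0.19, 0.41 and 0.25 with Hmgcs1, Idi1 and Insig1. Cyp51 and Dhcr7, each in another pair with high r, had no box, and Fdft1 and Sqle had no window. A link between the box and likeness was not tested.

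Among the other genes, Fdft1 and Dhcr7 had r = 0.78 and rho = 0.82 (permutation adjusted p = 0.0745 for r), and r = 0.68 without the 2 farthest rats. Sqle and Cyp51 had r = 0.76 and rho = 0.77 (permutation adjusted p = 0.0745 for r), and r = 0.79 without the 2 farthest rats. Between these pairs r took middling values for Cyp51 and Sqle, with 0.53 for Idi1 with Cyp51, 0.48 for Hmgcs1 with Cyp51, 0.47 for Hmgcs1 with Sqle and 0.43 for Insig1 with Cyp51. It was near 0 for others: -0.05 for Hmgcs1 with Fdft1, -0.07 for Insig1 with Fdft1, and 0.03 for Insig1 with Dhcr7. Day 21 replicate 2 had log2 ratios of 0.63 for Hmgcs1, 0.36 for Idi1 and 0.36 for Insig1, but -0.11 for Fdft1 and -0.59 for Dhcr7.

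**Figure D3:**
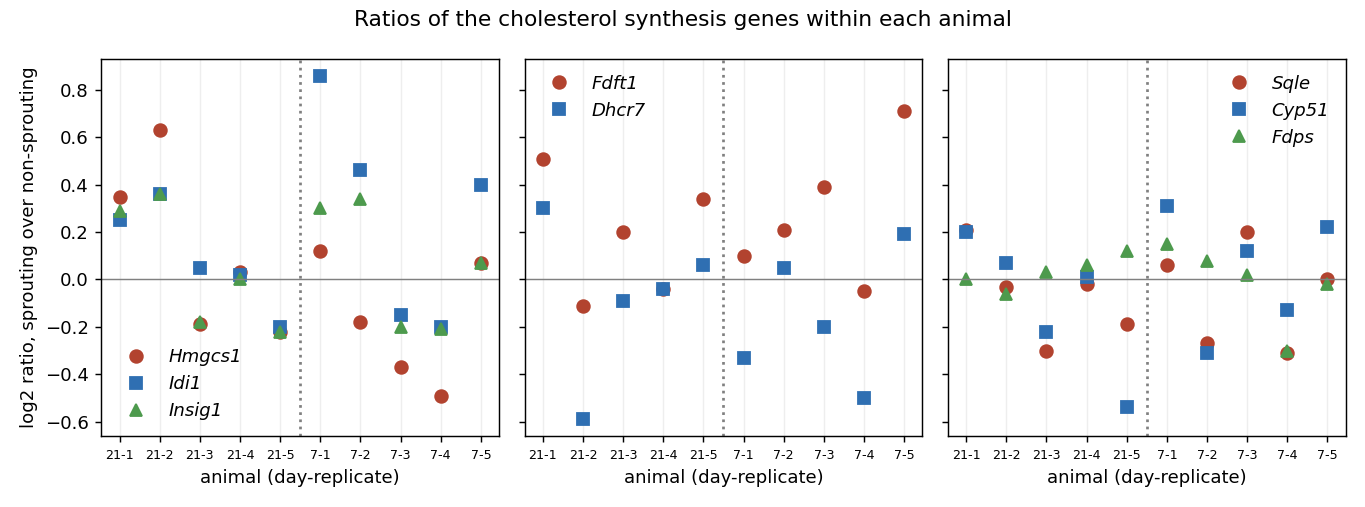
Log2 ratio of sprouting over non-sprouting neurons (vertical axis) in each rat (horizontal axis, day and replicate, day 21 left of the dotted line and day 7 right of it) for 3 groups of genes. Hmgcs1, Idi1 and Insig1 are high together in day 21 replicates 1 and 2, and all 8 genes are below 0 in day 7 replicate 4.

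**Figure D4:**
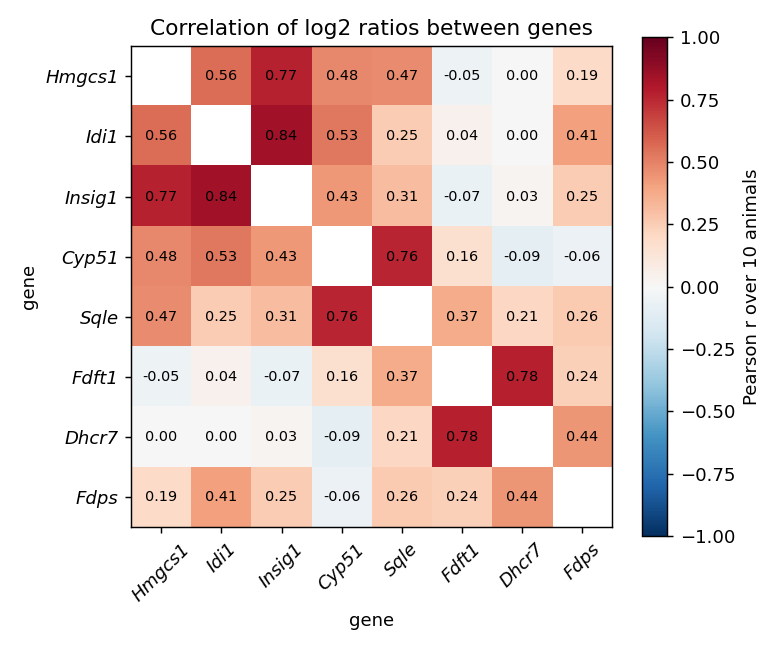
Pearson r over 10 rats between the log2 ratios of each pair of the 8 genes (both axes), with colour from -1 to 1. The highest values are 0.84 for Idi1 with Insig1, 0.78 for Fdft1 with Dhcr7, 0.77 for Hmgcs1 with Insig1 and 0.76 for Sqle with Cyp51.

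Genes outside the set were compared with the median ratio of the 8 in each rat. The 38 of cholesterol metabolism had a permutation test, and the others had none. Of 14427 genes with a symbol, those most alike were Suco (r = 0.92), Dck (0.89), Slc22a20 (0.87), Gpx4 (0.87) and N4bp2l2 (0.85), over 10 rats. Among 38 other genes of cholesterol metabolism the most alike was Msmo1, an oxidase that acts later than Cyp51. It had r = 0.84 (permutation p = 0.00323, adjusted p = 0.123) and rho = 0.76 (permutation adjusted p = 0.513), and r = 0.68 without the 2 farthest rats. Its log2 ratios were 0.24, -0.04, 0.01, -0.03 and -0.27 in day 21 replicates 1 to 5, and 0.12, -0.15, -0.03, -0.21 and 0.11 in day 7 replicates 1 to 5. Like the median of the 8 genes, it was highest in day 21 replicate 1. Of other genes on the way from squalene to cholesterol 8 of 9 had r above 0 (median 0.31). Of other mevalonate and isoprenoid genes it was 5 of 6 (median 0.22). It was 3 of 6 sterol sensing genes (median -0.04), 4 of 8 genes of uptake and transport (median -0.01) and 3 of 9 genes of efflux and turnover (median -0.17). None of the 38 passed after adjustment, with a smallest permutation adjusted p of 0.123 for r. The share of all genes with r above 0 was not counted, so these counts have no background. A difference between the lists was not tested.

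Of 39 other genes of the pathway on 5 lists, 38 were tested and none passed at an adjusted p under 0.05 at day 21, at day 7 or over both days. One gene of the uptake and transport list did not pass the filter on brightness. At an unadjusted p under 0.05 stood 0 higher and 4 lower in sprouting neurons at day 21, 2 higher and 2 lower at day 7, and 1 higher and 7 lower over both days. Of all genes 3.48% stood higher and 2.38% lower at day 21, 4.48% and 4.98% at day 7, and 5.64% and 5.4% over both days. At day 21 these genes were Nsdhl, Vldlr, Scap and Soat1, all lower, and at day 7 Ggps1 and Npc1, higher, and Mvd and Ch25h, lower. The median log2 ratio of the 38 was -0.027 at day 21 and -0.002 at day 7.

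Ggps1, which lengthens farnesyl diphosphate for the lipid tails of proteins, had log2 ratios of -0.01, -0.28, 0.11, -0.06 and -0.02 in day 21 replicates 1 to 5, and 0.18, 0.27, 0.22, 0.24 and 0.08 in day 7 replicates 1 to 5. It was above 0 in all 5 rats at day 7, as 3.53% of all genes were, with a mean of 0.2 ± 0.07 (SD, n = 5, unadjusted p = 0.00267, limma adjusted p = 0.403). The difference of day 21 minus day 7 was -0.25 (limma adjusted p = 0.94). Nsdhl, a dehydrogenase of the late steps, was below 0 in all 5 rats at day 7, as 5.1% of all genes were, with a mean of -0.15 ± 0.16 at day 21 and -0.14 ± 0.14 at day 7 (SD, n = 5 each, limma adjusted p = 0.837 and 0.529).

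Of the genes of uptake and transport, Vldlr, a lipoprotein receptor, was below 0 in all 5 rats at day 21, as 4.04% of all genes were, with -0.07 in day 21 replicate 4, whose direction was not settled. Its mean log2 ratio was -0.11 ± 0.07 at day 21 and -0.04 ± 0.13 at day 7 (SD, n = 5 each, limma adjusted p = 0.837 and 0.821). Npc2, which moves cholesterol out of lysosomes, was below 0 in the other 4 rats of day 21 and at -0.02 in that rat, with means of -0.16 ± 0.17 at day 21 and 0.12 ± 0.34 at day 7 (SD, n = 5 each, limma adjusted p = 0.87 and 0.744). Npc1, which works with Npc2, had -0.13 ± 0.13 at day 21 and 0.21 ± 0.25 at day 7 (SD, n = 5 each, limma adjusted p = 0.859 and 0.5), and its difference of day 21 minus day 7 was -0.34 (unadjusted p = 0.014, limma adjusted p = 0.94). Scap, the escort of the sterol regulatory factors, and Nr1h3, an oxysterol receptor that switches on efflux, had mean log2 ratios over both days of -0.13 ± 0.16 and -0.21 ± 0.25 (SD, n = 10 each, limma adjusted p = 0.417 and 0.41). Npc1, Scap, Nr1h3, Soat1, Mvd and Ch25h were picked after their values were seen.

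**Figure D5:**
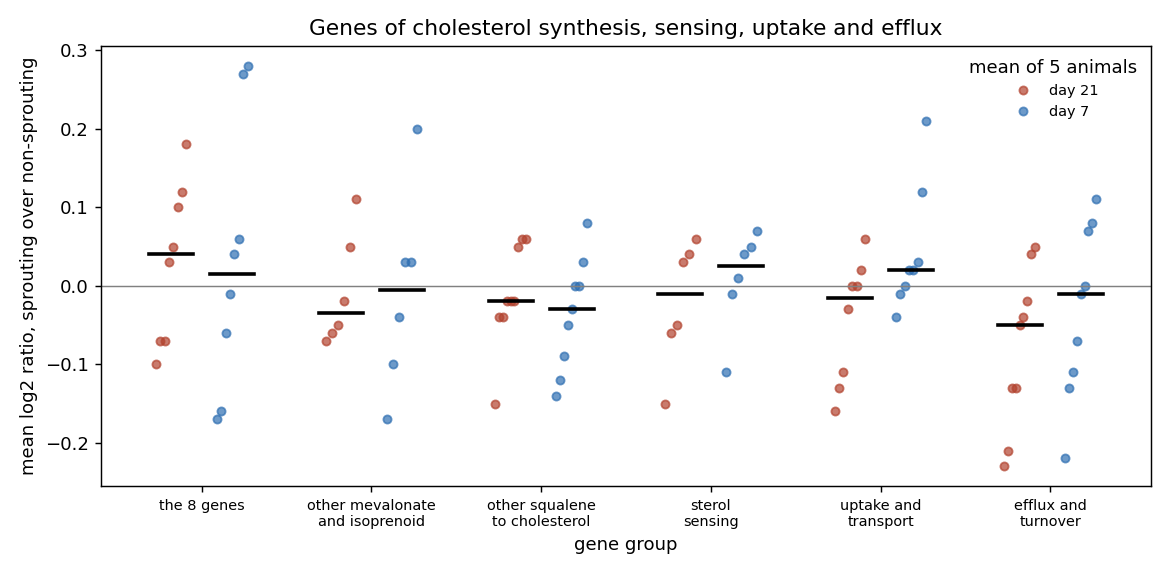
Mean log2 ratio of sprouting over non-sprouting neurons (vertical axis) of each gene in 6 groups of cholesterol genes (horizontal axis), day 21 left and day 7 right in each pair, with the median as a bar. Most means lie between -0.2 and 0.2, and medians are near 0 in all groups.

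Markers of glia, which make much of the cholesterol of the brain, were set beside the 8 genes. Of 12 oligodendrocyte markers 3 were higher in sprouting neurons at day 21, with a median log2 ratio of -0.021, and 11 at day 7, with a median of 0.271, none past an adjusted p of 0.05. Their summed linear level was 12400 to 50100 in sprouting and 14000 to 43700 in non-sprouting neurons at day 21, and 35300 to 75700 in sprouting and 37900 to 71400 in non-sprouting neurons at day 7. Of 12 astrocyte markers 3 were higher at day 21 (median log2 ratio -0.153) and 6 at day 7 (median -0.003). Their sums were 25600 to 33600 in sprouting and 27200 to 43900 in non-sprouting neurons at day 21, and 33700 to 43700 in sprouting and 33700 to 48900 in non-sprouting neurons at day 7. Sums of the 8 glutamatergic markers were 4000 to 6780 in sprouting and 4000 to 7910 in non-sprouting neurons at day 21. At day 7 they were 3970 to 6230 and 4190 to 5650. For 12 GABAergic interneuron markers they were 20400 to 59100 and 20600 to 59200 at day 21, and 30500 to 42800 and 25600 to 44500 at day 7. Probes differ in brightness and lists in length, so sums do not give shares of cell types. Over 10 rats the median ratio of the 8 genes had r = 0.44 with that of the astrocyte markers (0.16 without the 2 farthest rats) and r = 0.1 with that of the oligodendrocyte markers (0.49 without the 2 farthest rats). In day 7 replicate 4, where all 8 genes were below 0, the median ratio of the oligodendrocyte markers was 0.79 and that of the astrocyte markers 0.03. The part of glial RNA in the ratios of the 8 genes was not tested.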

How the data were processed

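Per the file headers, the 20 scanner files come from Agilent Feature Extraction 9.1.3.1 and give mean signal and background as intensity for 43628 spots in both channels. The authors also deposited a table of log2 ratios, Cy5 over Cy3, whose method is not given in the sources used here. It was an alternative only, and 20 of its columns were not used. In limma 3.58.1 (R 4.3.3) signals were background-corrected with normexp at an offset of 50 and arrays were normalized by loess, in which 2256 control spots had weight 0. Outlier spots were dropped. Each ratio was set as sprouting over non-sprouting neurons, and both arrays of a rat were averaged. A probe was kept where it cleared the background on a share of 0.5 of the arrays of any cell type and day, and where 3 rats per day gave a value. The brightest probe stood for a gene. One limma fit had a mean per day, two-sided tests and Benjamini-Hochberg adjustment over 33091 genes. Channel levels were put on a common scale with Aquantile. Confidence intervals are at 95%, and correlations were tested with 1e+05 permutations. Tests were tried on simulated data. The number of arrays limits the precision.

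Members, lists and tests were chosen with earlier results of these data known. The named genes were the 8 members, per list and comparison up to 2 genes with the smallest p among those with the same sign in every rat, and the 5 genes most alike to the median of the 8. Alternatives were other background corrections and normalizations, the deposited ratios, no filter, the mean of probes, each day alone, an intensity trend, replicate number or scan day as a block, and each rat left out. Scan day as a block for levels, and the comparison of pairs of genes under the same alternatives, were added after seeing the data. Replicate numbers do not pair rats, since the days were separate cohorts per the labels. Names came from the array or the RefSeq table of GRCr8, and no gene coordinates are given beside those of promoters.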

Additional observations from a re-analysis of the deposited data

Results flagged for a closer look

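Idi1 in non-sprouting neurons of day 7 replicate 1 had a log2 level of 11.65, while the other 4 rats of that group lay between 12.45 and 12.71. Its gap to the nearest rat was 0.76 of the range of the group. Of 50 such groups of 5 rats tested over the 8 genes and their median, 1 stood out, and chance alone marks about 1 in 20. The cause was not tested.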

How the results depend on the processing

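No member passed an adjusted p of 0.05 in any of the 6 comparisons under any alternative run, with a smallest adjusted p of 0.239 when a rat was left out and 0.368 otherwise. Most members lay near 0, and signs of such values turned easily. With each array centred on its median, the log2 ratio was -0.15 for Insig1 and -0.14 for Cyp51 at day 7, -0.01 for Fdps at day 21, and -0.06 for Insig1 and -0.09 for Fdps over both days, and day 21 minus day 7 was 0.17 for Insig1, 0.15 for Sqle and 0.01 for Cyp51. The day 7 median of the 8 was then -0.16, the mean pairwise r 0.61 and the number of pairs that passed 8. Pairs over all genes were not computed with that centring. With the processed signals day 21 minus day 7 was 0.04 for Insig1 and 0.03 for Sqle. With the mean of probes Insig1 was -0.03 at day 21, Fdps 0.01 at day 7, Hmgcs1 0.03 over both days, and Fdps levels at day 21 over day 7 were -0.03 in sprouting and -0.04 in non-sprouting neurons. With scan day as a block day 21 minus day 7 was 0.13 for Insig1 and 0.03 for Idi1, and Idi1 levels were 0.01 in sprouting and -0.02 in non-sprouting neurons. The day 21 ratio was then 0.31 for Idi1 and 0.19 for Insig1, and their ratio over both days was 0.29 and 0.13. Some scan days held rats of day 7 alone, so these day 21 and pooled ratios reach to scan days without a day 21 rat. Of the levels at day 21 over day 7, Fdft1 was -0.04 in sprouting neurons with no background subtraction and Fdps -0.01 in non-sprouting neurons with quantile normalization. With no normalization between arrays the levels were -0.31 for Insig1, -0.36 for Fdps and -0.22 for Fdft1 in sprouting neurons (median of the 8 -0.44), and -0.3 for Insig1, -0.31 for Idi1, -0.4 for Fdps and -0.13 for Fdft1 in non-sprouting neurons (median -0.44). The cause was not tested.

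With the replicate number as a block 0 of 8 members passed in every comparison. Each number occurs once per day, so this block cannot move a mean or a difference, and the signs of its 48 values were fixed. The intensity trend and each day alone alter only the estimate of spread. No brightness filter kept the same member probes, so signs could not change under these settings either. Under the deposited ratios and scaling between arrays, where values could move, none changed sign. The deposited log2 ratios of the 15 member probes correlated at 0.997 with those computed here. Leaving out each rat turned the sign of 42 of 480 values. At day 21 the range was -0.01 to 0.21 for Hmgcs1, -0.03 to 0.12 for Insig1, -0.17 to 0.02 for Cyp51 and -0.16 to 0.06 for Dhcr7. At day 7 it was -0.01 to 0.13 for Insig1, -0.02 to 0.13 for Cyp51 and -0.05 to 0.06 for Fdps. Over both days it was -0.09 to 0.02 for Hmgcs1, -0.06 to 0.03 for Cyp51 and -0.01 to 0.04 for Fdps. For day 21 minus day 7 it was -0.09 to 0.06 for Insig1, -0.07 to 0.06 for Sqle, -0.03 to 0.08 for Fdps, -0.17 to 0.02 for Fdft1 and 0 to 0.22 for Dhcr7. For levels at day 21 over day 7 it was -0.19 to 0.02 for Hmgcs1, -0.12 to 0.09 for Idi1, 0 to 0.16 for Fdps and -0.09 to 0.12 for Fdft1 in sprouting neurons, and -0.01 to 0.24 for Insig1, -0.02 to 0.24 for Idi1, -0.21 to 0.01 for Cyp51 and -0.05 to 0.26 for Fdft1 in non-sprouting neurons. The mean pairwise r ranged from 0.11 to 0.4 and the number of pairs that passed from 0 to 1.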
